A study of Homo sapiens with 40 samples.

Results

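UPF3A, MAGOH, MAGOHB and RNPS1 encode proteins of the exon junction complex and of the decay pathway that reads it. Their transcript models were taken from 1 catalogue by gene identifier, which gave 16 models of 4 genes among 19972 models of 9460 genes. UPF3A had 6 models, MAGOHB 5, RNPS1 3 and MAGOH 2, and all 16 had different chains of introns. In the catalogue 4731 of 9460 genes had at least 2 models, and 8.07% had at least 5. A coding region was given for 14 of the 16 models, with 12 different coding regions, and 2 were without one, against 13.6% of all models. UPF3A, MAGOHB and RNPS1 (3 of 4) had at least 2 start positions and UPF3A and MAGOHB (2 of 4) at least 2 end positions of the coding region, against 44.8 and 41.6% of genes with at least 2 coding models.

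The series examined messenger RNA on ribosomes in H9, an established human embryonic stem cell line, kept as stem cells (labelled control) or turned into neural progenitor cells by dual-SMAD inhibition. The 40 libraries of polyadenylated RNA came from cytosol, monosomes, light polyribosomes (2 to 4 ribosomes) and heavy polyribosomes (5 or more). There were 2 long-read and 3 short-read libraries for each cell type and fraction. The catalogue holds positions of exons and coding regions with no value per library, so neither cell types nor fractions were compared here. Depth is unknown, and a form not found is not shown to be missing from the cells. Of the fixed markers, models were found for POU5F1, NANOG, LIN28B and DNMT3B among stem cell genes and for PAX6, OTX2, NES and FABP7 among neural progenitor genes, while LIN28A, SOX2 and SOX1 had none. Of neural crest markers PAX3 had 3 models and SOX10 and TFAP2B had none, and the mesoderm and endoderm markers TBXT, SOX17, GATA4 and GATA6 had none.

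The exon junction complex is left on messenger RNA just upstream of exon junctions after splicing and is removed as ribosomes pass. Its core holds EIF4A3, RBM8A and either MAGOH or its paralogue MAGOHB. RNPS1 joins the complex at its edge and acts in splicing and in decay, and UPF3A, like its paralogue UPF3B, links the complex to UPF2 and UPF1. A stop codon far upstream of the last junction leaves a complex downstream of the terminating ribosome, which marks the RNA for nonsense-mediated decay. The usual rule for such a candidate, a last exon junction that lies more than 50 nt downstream of the stop, was applied to each model as deposited.

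Of the 14 coding models, 1 met this rule, model 4 of MAGOHB, in which 360 nt lay between the stop and the last junction. In the other 13 the coding region ended inside the last exon. The whole catalogue held 541 candidates among 17247 coding models (3.14%) and 430 genes with a candidate among 8579 (5.01%), so a single model out of 14 is not read as a difference. The median distance of all candidates was 199 nt, and 140 of them lay farther upstream than that of MAGOHB. In both MAGOH models, in the other 3 coding MAGOHB models and in all 3 RNPS1 models the coding region ended exactly 100 nt into the last exon. In UPF3A it ended 111, 129, 129, 156 and 191 nt into it.

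**Figure D1:**
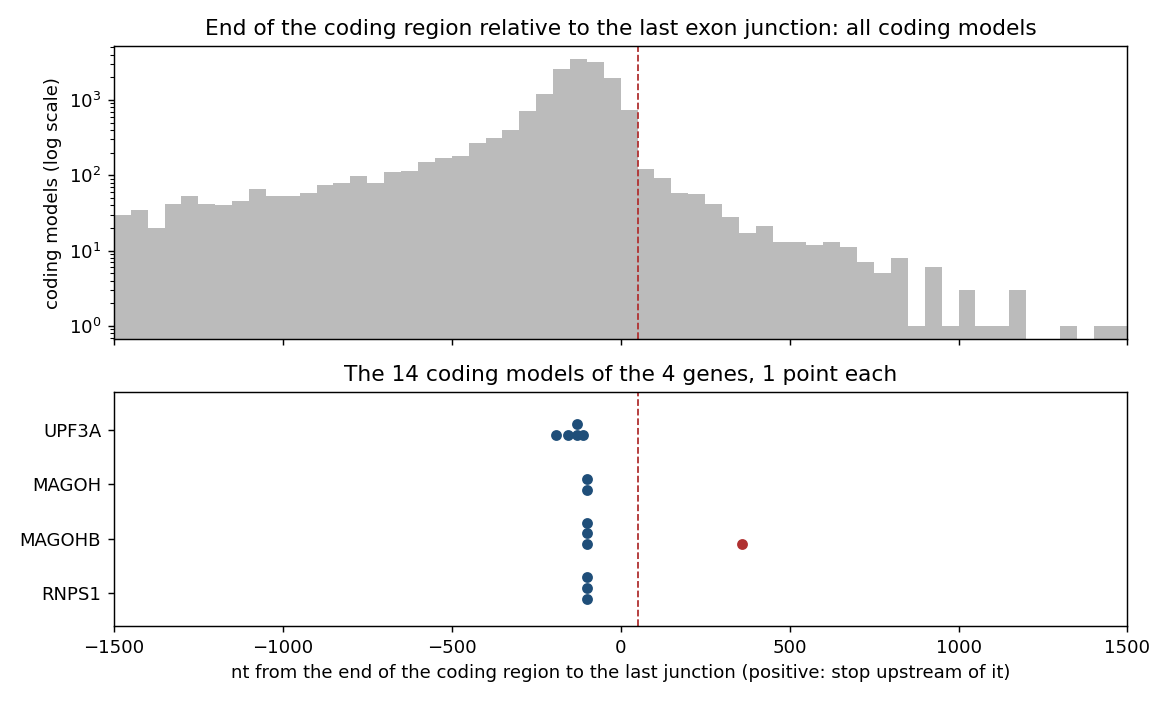
Distance from the end of the coding region to the last exon junction (x axis, nt, positive where the stop lies upstream); the upper panel counts all coding models in bins of 50 nt on a log scale, with 214 models outside the axis, and the lower panel shows the 14 coding models as points, those with equal values stacked. The dashed line marks 50 nt, and the red point of MAGOHB at 360 nt is alone beyond it.

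MAGOH, a subunit of the core, lies on the minus strand of chromosome 1 between 53226927 and 53238527. Its models, TCONS_00002086 (model 1) and TCONS_00002087 (model 2), shared the start codon, whose A is at 53238448, the stop and the last base. Model 2, with 5 exons and 638 nt, coded for 147 codons, the last codon of the coding region included here and throughout. Model 1, with 4 exons and 508 nt, lacked the third exon, from 53233542 to 53233652. That exon is 111 nt long, a multiple of 3, and lies entirely in the coding region. Without it, model 1 coded for 110 codons: codons 50 to 86 of the longer region were missing and all others kept their frame. Its skipping was seen in 1 model and its inclusion in 1, and the number of reads behind either is not known. Among gene loci with at least 2 models, 49.4% held a cassette exon of any length. The first coding block of MAGOH is shown because both models share it. It runs for 88 nt from 53238361 to 53238448, is read on the minus strand from 5′ to 3′ in RefSeq's promoter table (GRCh38.p14), and has the start codon in capitals:

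MAGOH first coding block: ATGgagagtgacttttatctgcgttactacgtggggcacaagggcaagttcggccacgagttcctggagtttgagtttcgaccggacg

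MAGOH-DT, a non-coding RNA gene on the opposite strand, had 1 model of 3 exons and 1199 nt, which began at 53238592. Only 64 bases separated its first base from that of MAGOH model 2. These 64 bases are shown, on the strand of MAGOH, because transcripts leave them in both directions. The capitals mark TGACGTCA, which reads the same on both strands and is the motif of the CREB and ATF transcription factors. It lies 15 nt from the first base of MAGOH and 41 nt from that of MAGOH-DT.

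Between MAGOH and MAGOH-DT, chr1:53238528-53238591: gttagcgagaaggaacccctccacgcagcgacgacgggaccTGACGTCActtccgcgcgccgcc

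MAGOHB, the paralogue, lies on the minus strand of chromosome 12 between 10605529 and 10613597. Its model 1 matched the full form of MAGOH exon by exon. The internal exons of both were 59, 111 and 83 nt long in that order. The coding part of the last exon was 100 nt in both. The coding part of the first exon was 88 nt in MAGOH and 94 nt in MAGOHB, so that MAGOHB had 149 codons, 2 more than MAGOH. Among 6606 genes with a model of at least 3 internal exons, MAGOH and MAGOHB were the 2 with exons of 59, 111 and 83 nt in a row. The lengths searched for were those of MAGOH model 2, so MAGOH is among the 2 by construction. They stood in a row in 1 model of MAGOH and 3 of MAGOHB. Introns and ends were not alike in length: the successive introns were 2725, 1924, 4587 and 1727 nt in MAGOH and 2758, 680, 1894 and 1479 nt in MAGOHB. The last exon measured 218 nt in MAGOH and 846 nt in MAGOHB model 1. The other 4 MAGOHB models ended 483 or 484 nt earlier, at 10606012 or 10606013, with 362 or 363 nt in the last exon.

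**Figure D2:**
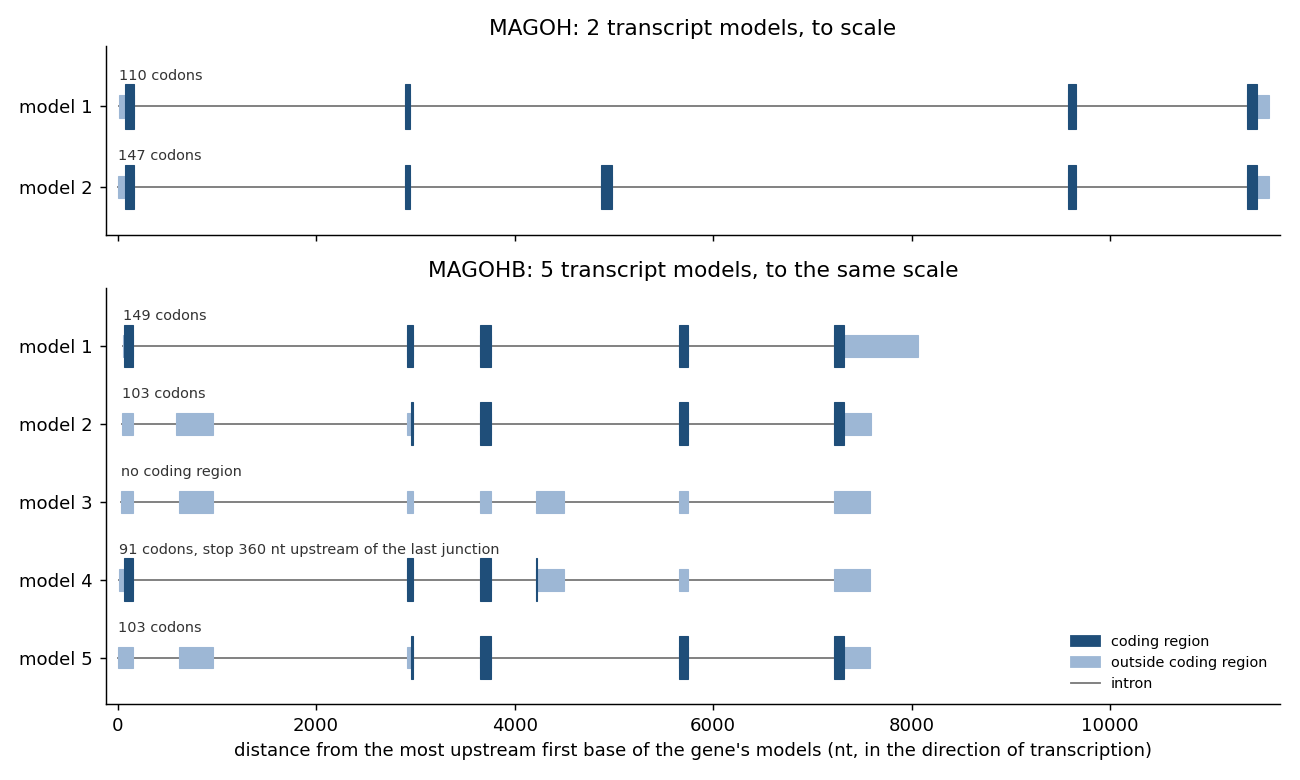
Transcript models of MAGOH and MAGOHB drawn to 1 scale (x axis, nt from the most upstream first base of each gene's models; y axis, model), with coding regions as tall dark boxes, other exon sequence as low light boxes and introns as lines. MAGOH model 1 lacks the exon of 111 nt whose counterpart all 5 MAGOHB models hold, and MAGOHB models differ by added exons upstream and downstream of it.

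The pair varied at different places. In MAGOH the exon of 111 nt was skipped in model 1, whereas the corresponding exon of MAGOHB, from 10609831 to 10609941, was present in all 5 models. In MAGOHB the variation consisted of exons added to the full form. An exon of 286 nt, from 10609098 to 10609383, followed the exon of 111 nt in models 3 and 4 and was skipped in models 1, 2 and 5. An upstream exon, between the first exon and the exon of 59 nt, was present in models 2, 3 and 5 and skipped in models 1 and 4. It began at 10613005 in model 2 and 27 nt farther downstream, at 10612978, in models 3 and 5, which gave lengths of 366 and 339 nt. Among loci with at least 2 models 23.4% had such an alternative 3′ splice site. The bases around both sites are shown with the AG that ends the intron in capitals:

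MAGOHB site of model 2, chr12:10612994-10613017: aatatgttttAGgtgtttacgtgt

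MAGOHB site of models 3 and 5, chr12:10612967-10612990: tgttcaccatAGgacgcatgaaga

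Each added exon went with another coding region. In model 4, TCONS_00006684, of 1041 nt, the coding region used the start of model 1 at 10613532 and kept its first 88 codons. It then read 3 codons from the exon of 286 nt and ended at 10609375, which gave 91 codons. After the stop, 277 nt of that exon and the exon of 83 nt lay upstream of the last junction, the distance of 360 nt given above. In models 2 and 5 the deposited coding region began inside the exon of 59 nt, at 10610636, and held 103 codons, which were codons 47 to 149 of model 1 in the same frame. The stretch before it was 526 nt in model 2 and 542 nt in model 5, against 12 nt in model 1 and 46 nt in model 4. Model 3, which held both added exons, had no coding region.

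The first exon of models 2, 3 and 5 also holds the start position of model 1. RefSeq's table gives the first 77 bases of the upstream exon of model 2 and the first 50 of that of models 3 and 5. Read from the start of model 1, the exon of model 2 gave a stop codon, TAA, as codon 36, which ends at 10612992 and lies 605 nt upstream of the last junction. The bases around it are shown with this TAA in capitals. In the 50 bases of models 3 and 5 that frame held no stop codon, and the rest of the exon was not read. With this other reading of model 2, chosen after its value was seen, 2 of the 14 coding models would meet the rule. Which start the ribosome uses was not measured in these positions.

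MAGOHB model 2 read from the start of model 1, chr12:10612984-10613003: gtttacgtgTAAttgttcac

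RNPS1, a protein at the edge of the complex, lies on the minus strand of chromosome 16 between 2253122 and 2268114. Its 3 models shared the last base, the stop and the last 6 exons. They differed at the start. Model 1 began with a first exon of 177 nt, from 2267663 to 2267839. Models 2 and 3 began with a first exon of 60 nt, from 2268055 to 2268114. Alternative first exons were found in 18.0% of loci with at least 2 models. Models 1 and 2 had 1 coding region of 306 codons, which began at 2264643 in the second exon, and differed only in the stretch before it, 294 and 177 nt.

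Model 3, TCONS_00010564, skipped that second exon, of 188 nt from 2264573 to 2264760, together with the start codon. Its deposited coding region began at 2268056, with the last 2 bases of the first exon, and continued in the third exon of model 2. It held 283 codons, 23 fewer than the full form. Of these, 282 were codons 25 to 306 of the full form in the same frame, and 1 was its own. The bases around the end of the first exon are shown because they carry this start. The capitals are the A and T before the intron, which begins with GT, and the third base of the codon comes from the next exon, which the table does not hold.

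RNPS1 end of the first exon of models 2 and 3, chr16:2268045-2268069: cggcggcgggaagATgtaagttggg

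**Figure D3:**
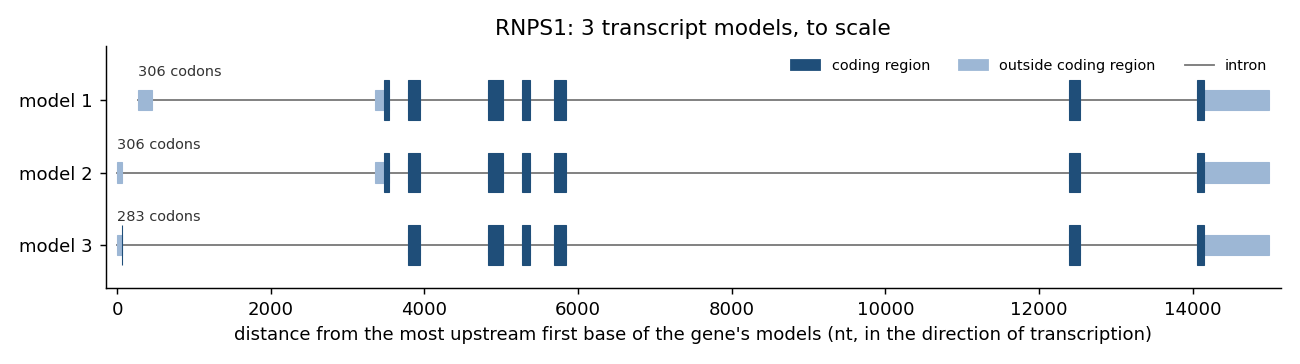
The 3 RNPS1 models to scale (x axis, nt from the most upstream first base; y axis, model), with coding regions as tall dark boxes, other exon sequence as low light boxes and introns as lines. Models 1 and 2 differ in the first exon and share 306 codons, and model 3 lacks the exon in which their coding region begins.

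TGACGTCA, found between MAGOH and MAGOH-DT, also lay at the RNPS1 start, where its last base was the first base of models 2 and 3. It occurred in 2 of the 3 RefSeq promoter windows of RNPS1, which overlap there, in the window of MAGOH, and in none of the 3 of UPF3A or the 1 of MAGOHB. The first bases of the MAGOHB models lie outside that gene's window. Of all 35116 windows of 300 nt in the table, 649 held it (1.85%). The motif was chosen after the sequences were seen, and its presence says nothing of binding.

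RNPS1 start of models 2 and 3, chr16:2268100-2268129: cttgactcTGACGTCAgagcggcgccggcc

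UPF3A, the decay factor, lies on the plus strand of chromosome 13 between 114281601 and 114305803 and was the most varied of the 4. Its 6 models had 5 coding regions with 3 start and 4 end positions and used 4 last exons that do not overlap. Among these, a last exon and an end position come from model 1 alone, whose coding region has no stop codon, as described below. In the catalogue 4.75% of genes had at least 6 models, and 0.719% of loci with at least 2 models had at least 4 separate last exons. Of genes with at least 2 coding models, 2.19% had at least 4 end positions of the coding region and 9.80% at least 3. Genes with fewer than 4 models could not reach 4 of either. Shares among genes with as many models as UPF3A are not given here, so these shares partly restate its number of models. Of its 11 introns, 9 were present in at least 2 models.

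Models 1, 2 and 3 shared the start codon at 114281640, shown in capitals:

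UPF3A start codon of models 1, 2 and 3, chr13:114281630-114281650: agagtgcggcATGcgctcgga

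These 3 models ended early in the gene. Model 2 had 2 exons and 478 nt. Its second exon did not stop at the 5′ splice site that the other 5 models used there but ran on for 138 nt into the intron. The coding region took 4 nt of that intron and held 106 codons, of which 104 were shared with model 1. Model 3 had 5 exons and 1648 nt. Its last exon ran 991 nt past the 5′ splice site used by models 1 and 6, and its coding region took 80 nt there and held 237 codons, 210 of them shared with model 1. Model 5, with 3 exons and 1413 nt, ended in the same stretch, 988 nt past that splice site, and had no coding region. A last exon that runs past a 5′ splice site in this way was found in 21.9% of loci with at least 2 models.

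The end of model 2 is shown because it lies inside an intron. Its last 30 bases hold AATAAA, the usual signal for cleavage and polyadenylation, in capitals, beginning 15 nt before the last base. Of 60 model ends whose last 40 nt are in the table, 45 held AATAAA on the strand of the gene. On either strand, AATAAA was present in 17.4% of all promoter windows. These windows are 300 nt long and were searched on both strands, so the shares are not like measures.

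UPF3A end of model 2, chr13:114282236-114282265: gtgtgagctttttgAATAAAtacatttcag

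Model 1, TCONS_00007588, with 7 exons and 884 nt, had the longest coding region deposited for the gene, 281 codons, but that region has no stop codon. It ended at 114291789, 2 nt before the last base of the model. The last exon is shown in full, with the last deposited codon, ATT, in capitals. None of the 52 codons read there was a stop. The next 2 bases end model 1. The exon of model 6 is the same but 1 base longer, and the intron after it begins with GT. The exon of model 1 is 54.4% A, 86 of 158 bases, with a longest run of 9. Of the 17247 coding regions in the catalogue, 517 reached the end of their model in the same way, to within 2 nt. The distance of 156 nt given for model 1 is therefore the end of the model and not of a reading frame.

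UPF3A last exon of model 1, with the next 7 bases, chr13:114291634-114291798: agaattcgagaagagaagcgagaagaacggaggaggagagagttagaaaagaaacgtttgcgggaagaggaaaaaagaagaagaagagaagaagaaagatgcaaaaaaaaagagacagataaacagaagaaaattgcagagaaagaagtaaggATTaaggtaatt

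Models 4 and 6 reached the distal end of the gene, with the same stop at 114304917 and the same last base at 114305803, and their coding regions began far inside it. Model 6, TCONS_00007594, with 8 exons and 2042 nt, had a first exon that began at 114281990, downstream of the shared start codon. Its coding region began at 114286602 and held 276 codons. Model 4, with 6 exons and 1895 nt, began 3 nt upstream of the shared start codon and joined the exon that ends at 114282943 to the exon at 114298840. It left out 4 coding exons with 425 nt, which is not a multiple of 3, so a frame from the shared start would enter the next exon shifted. The deposited coding region of model 4 instead began at 114298969 and held 152 codons, all within those of model 6.

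No UPF3A model held the complete frame. Joining the coding blocks of model 1 to those of model 6 where they overlap gives 10 blocks with 1431 nt and 477 codons in a single frame, from 114281640 to 114304917. This composite is a construction from 2 models, and no model holds all its junctions. The coding regions of models 1, 4 and 6 were in its frame throughout, covering codons 1 to 281, 326 to 477 and 202 to 477. For model 1 this follows from the construction, which starts with its blocks and takes those of model 6 from the last exon of model 1 on. Model 4 lies within the last of these blocks and has the stop of model 6, so its frame is not independent. Only the agreement of models 1 and 6 where they overlap was free to differ.

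**Figure D4:**
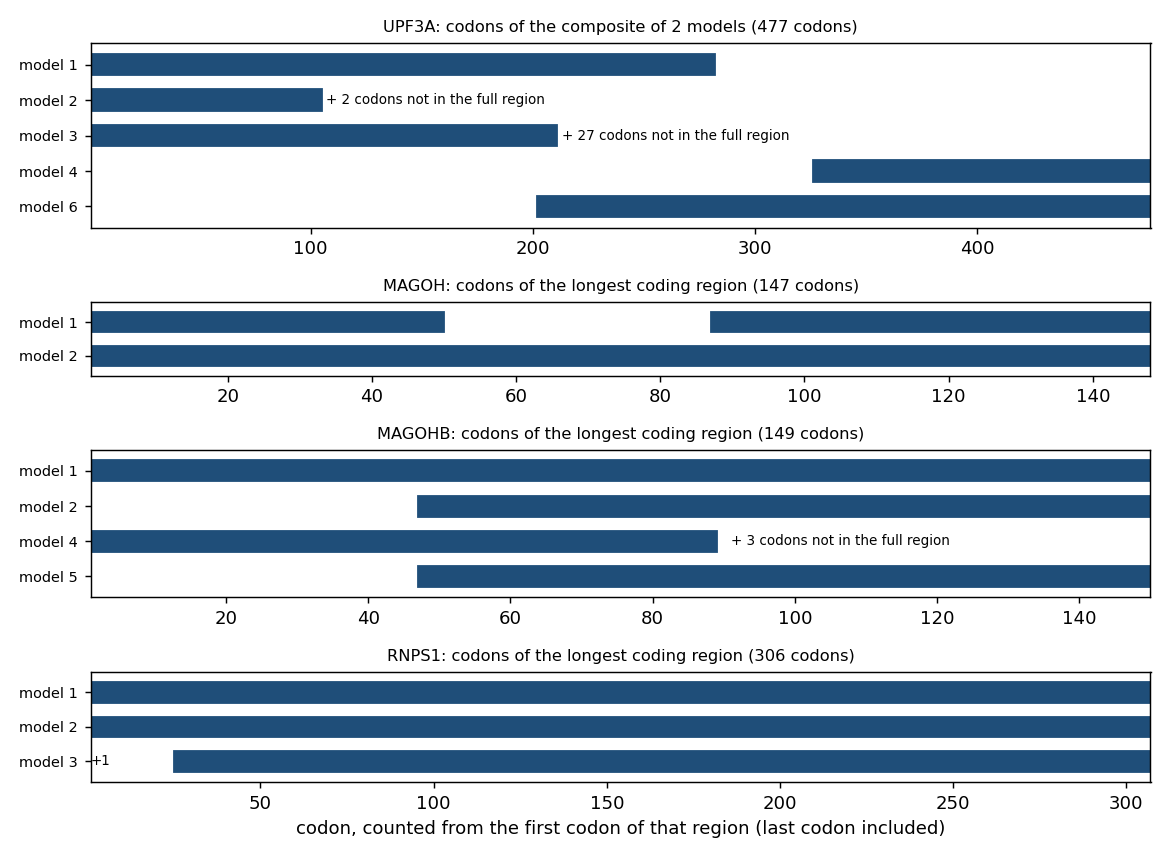
Codons of the longest coding region of each gene (x axis, codon number) held in full by each coding model (y axis, bars); for UPF3A the reference is the composite of models 1 and 6 with 477 codons. The UPF3A bars start at codon 1 or end at codon 477 but none does both, whereas MAGOH, MAGOHB and RNPS1 each have a model with the whole region.

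The fourth coding exon of UPF3A, the exon whose skipping is known to give a shorter UPF3A protein, was a cassette exon here. It is 99 nt long, a multiple of 3, from 114286302 to 114286400, and spans codons 141 to 174 of the composite. It was present in models 1 and 3, skipped alone in models 5 and 6, and left out together with 3 more coding exons in model 4, while model 2 ends before it. Models 1 and 3, with the exon, began upstream of the shared start codon, at 114281601 and 114281614. Of the models without it, 5 and 6 began downstream of that codon, at 114281921 and 114281990, and model 4 began upstream of it, at 114281637. In model 6 the deposited coding region begins after the place of the skipped exon. Whether a model like it with that exon would have another coding region was not tested.

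**Figure D5:**
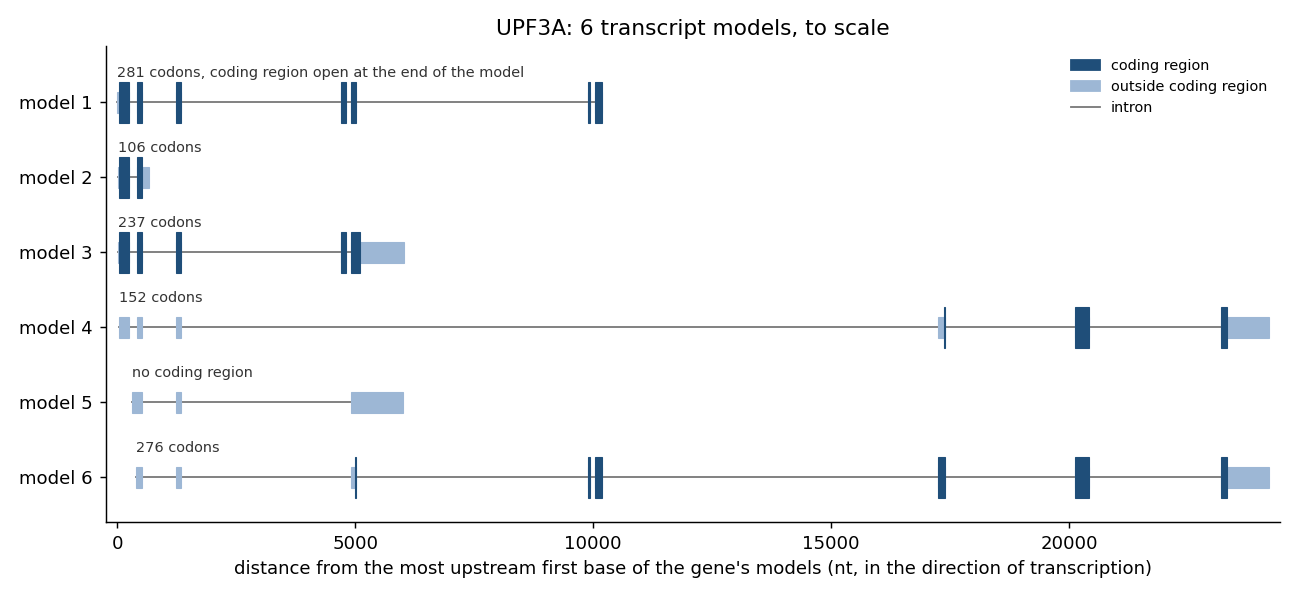
The 6 UPF3A models to scale (x axis, nt from the most upstream first base; y axis, model), with coding regions as tall dark boxes, other exon sequence as low light boxes and introns as lines. Models 1, 2 and 3 start their coding region in the first exon and end within 10191 nt, and models 4 and 6 reach the distal end with coding regions that begin later.

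Over the 4 genes 14 events separated the models. There were 6 cassette exons: 1 each in UPF3A, MAGOH and RNPS1 and 3 in MAGOHB, where the forms of 366 and 339 nt are the same exon with its 2 acceptor sites. Those of UPF3A (99 nt) and MAGOH (111 nt), both inside the full coding region, and both forms of the upstream MAGOHB exon were multiples of 3, while the exons of 286 nt in MAGOHB and 188 nt in RNPS1 were not. UPF3A held 6 of the remaining 8 events, 5 of them at last exons. The last exon of its models 3 and 5 is counted both as a separate last exon and as one running past a 5′ splice site. No intron of one model lay whole inside an exon of another (0 retained introns). No 2 overlapping exons joined to the same next exon ended at different 5′ splice sites (0 such sites). The shares of all loci with these kinds of event are not given here, so neither 0 is read as a difference.

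Of 26 genes on a list of exon junction and decay factors, 18 had a model, among them the 4 genes described above, which were chosen from the catalogue. Of the other 22, 14 had a model (63.6%), and of 20030 protein-coding genes outside the list 8391 had one (41.9%). PYM1, which takes the complex apart on ribosomes, had 6 models, of which 2 had a coding region. RBM8A, the partner of MAGOH, the termination factor gene GSPT1 and PNRC2 had 2 each. EIF4A3, CASC3, SAP18, PNN, ALYREF, UPF3B, SMG5, SMG8, SMG9 and ETF1 had 1. Among those with none were ACIN1, UPF1, UPF2, SMG1, SMG6, NBAS and DHX34. The only decay candidate among the 18 was that of MAGOHB. CASC3, another gene of the list, had 41 nt between its stop and the last junction, below the limit of 50 nt. UPF3B, the paralogue of UPF3A, had 1 model, in which 471 codons ended 150 nt into the last exon.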

How the data were processed

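The values used are positions, in nt counted from 1, in the authors' deposited transcript-model file, whose lines name PacBio as source. What genome build, annotation, model builder and coding-region caller were used: not given in the sources used here. STAR 2.7.8a and Salmon 1.9.0 stand in the submitters' processing notes, with no role stated, and per the labels' protocols long-read libraries were made with R2C2. The file analysed gives no value per library, so the tests planned for counts were not run and nothing was tested.

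Models were parsed with Python 3.11.15 and pandas 2.3.3 and numbered per gene in the order of their identifiers. Junctions, frames and events were computed from exon and coding lines. Stop distances and calls of a skipped exon were first checked on 200 simulated loci. Frames and the other kinds of event were not simulated. Sequences come from RefSeq's promoter table (GRCh38.p14), in which all 4 genes matched by symbol. Its bases fitted the deposited positions: 2068 of 2098 introns began with GT (98.6%), 369 of 369 ended with AG, 1805 of 1887 coding regions began with ATG (95.7%) and 54 of 56 ended with a stop codon. A protein table was not used here, so the identity of the MAGOH and MAGOHB proteins was not computed. The named genes are the 4 members and a fixed list of 26 factors, not all of which are reported here by name. Members, lists and rules were chosen with earlier results of these data known.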

Additional observations from a re-analysis of the deposited data

How the results depend on the processing

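The single decay candidate among 14 coding models stayed 1 with a limit of 55 nt, with any junction downstream of the stop (0 nt), with the stop codon placed after the deposited coding region, and with coding regions within 2 nt of a model end left out (13 models). These settings could not change the count. The candidate lay 360 nt upstream, and every other coding region ended at least 100 nt into the last exon. The model left out, UPF3A model 1, was not a candidate. Reading MAGOHB model 2 from the start of model 1, an alternative chosen after seeing the data, gave 2. Other coding models that hold an upstream start were not read to a stop. The count of 16 models was the same as distinct intron chains, and the 12 coding regions became 11 without that of UPF3A model 1. Requiring each form in at least 2 models left 7 of 14 events, by construction none in MAGOH or RNPS1. Requiring at least 2 models left 8 of 26 listed genes instead of 18. No paired analysis was possible because the models carry no value per library. The planned identity of the MAGOH and MAGOHB proteins was not run.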
